A study of Mus musculus with 2 samples.

Results

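The transcripts described here are the RNAs that RefSeq lists as noncoding (accessions beginning NR_) and that the arrays detected in fetal liver erythroid progenitors. They were selected on their detection signals: a probe had to stand well above background in the vector or the ESlncRNA channel on both arrays, and entries named 9430076G02Rik or by a bare genome interval were to be left out, of which there were none. The rule found 282 transcripts of 279 genes, measured by 340 probes, out of 626 noncoding transcripts with 743 probes on the array. A transcript with several probes is represented by its brightest one. By the RefSeq table of today, 162 are long noncoding RNAs, 74 pseudogenes, 12 structural RNAs, 26 belong to genes now listed as coding, and 8 have no type.

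Lineage-negative erythroid progenitors were taken from the fetal liver of C57BL/6 mice at E14.5, transduced, and sorted as GFP+, and their RNA was compared on two-colour arrays. One RNA came from cells transduced with the ESlncRNA vector and one from cells transduced with the control vector, on 2 arrays called replicate 1 and replicate 2. ESlncRNA is itself a long noncoding RNA, known from red cell precursors. The series asked how its over-expression altered gene expression. Cy5 marked the RNA of ESlncRNA cells and Cy3 that of vector cells each time, so the dyes were never swapped and a dye effect of a probe would enter both ratios. The promoter that drives the transgene is not given in the sources used here.

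Long noncoding RNAs act as RNA rather than as templates for protein. Some scaffold nuclear bodies, some silence a chromosome or an imprinted cluster from which they are transcribed, and some serve mainly as hosts whose introns hold small nucleolar RNAs. Transcribed pseudogenes are copies of coding genes that no longer make the protein. Structural RNAs such as the spliceosomal U RNAs build the machines of RNA processing, and most of them lack a poly(A) tail, while the labelling used here began with an oligo-dT primer.

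A probe reads 60 bases of a transcript, and the ratio is that of those bases alone. The probes of the transcripts on which the results turn are shown in full, on mm9 coordinates as the array files give them. Those of the lowered RNAs lie at chr19:53526151-53526210, reverse strand (Mirt1), chr15:72636072-72636131, reverse strand (Peg13), chr12:110809678-110809737, forward strand (Meg3), chr19:5842564-5842623, reverse strand (Neat1), chr7:149761492-149761551, reverse strand (H19) and chr2:128142039-128142098, reverse strand (Morrbid). Those of the raised RNAs lie at chr15:83184331-83184390, reverse strand (1700001L05Rik), chr3:94464690-94464749, reverse strand (BC021767), chr17:13008078-13008137, forward strand (Airn) and chr15:62081020-62081079, forward strand (Pvt1). No letters are in capitals because the whole probe is the measured site.
Mirt1: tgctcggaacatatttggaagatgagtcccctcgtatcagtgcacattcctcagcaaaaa
Peg13: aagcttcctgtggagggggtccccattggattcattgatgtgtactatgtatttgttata
Meg3: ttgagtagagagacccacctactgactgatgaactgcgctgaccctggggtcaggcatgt
Neat1: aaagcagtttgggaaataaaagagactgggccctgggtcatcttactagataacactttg
H19: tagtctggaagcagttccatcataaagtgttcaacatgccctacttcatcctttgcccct
Morrbid: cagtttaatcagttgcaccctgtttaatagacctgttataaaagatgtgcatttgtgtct
1700001L05Rik: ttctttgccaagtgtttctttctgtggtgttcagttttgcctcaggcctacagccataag
BC021767: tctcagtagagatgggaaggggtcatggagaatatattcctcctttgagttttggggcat
Airn: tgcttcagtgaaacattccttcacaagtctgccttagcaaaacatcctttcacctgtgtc
Pvt1: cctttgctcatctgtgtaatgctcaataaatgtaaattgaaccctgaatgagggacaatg

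Noncoding RNAs changed in both directions when ESlncRNA was over-expressed. The lowered ones reached further from zero than the raised ones, as they did over the whole array. Of the 282, 80 were higher and 98 lower (limma, adjusted p under 0.05 with Benjamini-Hochberg adjustment over all probes kept), and 104 did not pass. Over all 20614 detected transcripts of the array, 26.4% were higher and 36.7% lower, so the shares among the noncoding transcripts, 28.4% and 34.8%, lay close to that background. Most of the calls were small: 142 of the 178 were below 1.5-fold. At least 2-fold on both arrays, 3 of the 282 were higher and 11 lower. Of all 20614 detected transcripts, 123 (0.597%) were higher by that rule and 1650 (8.0%) lower. The share lowered by that much was below this background, and the share raised, on 3 transcripts, above it. The median log2 ratio of the noncoding transcripts was 0.01, and that of all detected transcripts -0.03. The ratios ran from -2.64 to 1.31, and those of all detected transcripts from -5.81 to 2.32. Across the 282 transcripts the ratios of both arrays correlated at 0.964 (Pearson) and 0.902 (Spearman), as a description over transcripts that share both arrays.

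All ratios are log2 of ESlncRNA over vector after normexp background correction and loess, as the mean of 2 arrays with its SD. The spot signals quoted are raw, with no background removed. Replicate 1 had a median raw signal of 35.9 in the vector channel and 67.8 in the ESlncRNA channel, and replicate 2 had 39.5 and 76.3, so a raw signal must not be compared between channels without the normalization. The scaling set the balance of calls. Higher transcripts were 44.9% of the calls with loess, 82.3% with median centring of each array and 65.7% with Agilent's processed signals. Over all detected transcripts these shares were 41.8%, 77.5% and 59.4%, so the balance moved over the whole array. Median centring moved the median of all detected transcripts to 0.34 and that of the noncoding ones to 0.33. The shift was not the same for each transcript. Igf2os went from -0.52 with loess to -0.49, and Gas5 from 0.18 to 0.94. A single value therefore does not correct for it.

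**Figure D1:**
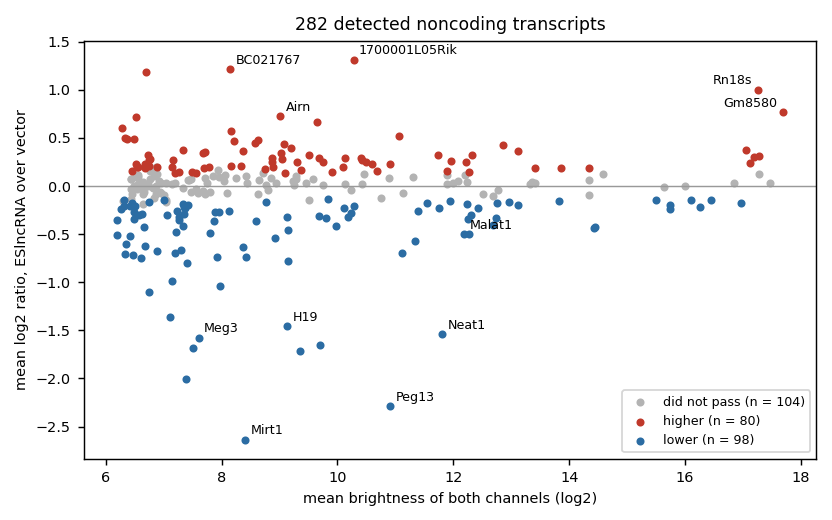
Mean log2 ratio of ESlncRNA over vector (vertical) against the mean log2 brightness of both channels (horizontal) for the 282 noncoding transcripts, 1 point each, coloured by call. The points furthest from 0 are the lowered Mirt1 and Peg13, while the raised ones stay at or below 1.31.

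The most lowered noncoding RNA was Mirt1, a long noncoding RNA named for its induction in infarcted heart. Its probe gave raw signals of 659.6 and 599 in the vector channel on the arrays of replicates 1 and 2, and of 147 and 164 in the ESlncRNA channel. The log2 ratios were -2.66 and -2.61, a 6.21-fold lower level (mean -2.64 ± 0.042 SD, n = 2 arrays, limma adjusted p = 1.27e-07). Peg13, an imprinted RNA made from the paternal allele within Trappc9, gave 3067 and 3117 in the vector channel and 1052 and 1299 in the ESlncRNA channel. Its ratios of -2.30 and -2.28 put it 4.89-fold lower (-2.29 ± 0.0086, limma adjusted p = 1.78e-07). On both arrays these transcripts were low in the ESlncRNA RNA even by raw signal, although that channel was the brighter one.

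Neat1, Meg3 and H19 among the 12 most lowered transcripts are well-studied RNAs. Neat1, the scaffold of paraspeckles, had raw signals of 4728 and 3963 against 2788 and 3019. Its log2 ratios were -1.60 and -1.48 (2.90-fold lower, -1.54 ± 0.085). Meg3, the maternally expressed RNA of the Dlk1-Dio3 cluster, was 2.98-fold lower (-1.57 ± 0.065), and H19, the maternally expressed RNA beside Igf2, 2.74-fold lower (-1.45 ± 0.023). The adjusted p of each was at most 1.49e-06 in limma. In all 3 the ESlncRNA signal lay below the vector signal on both arrays.

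The other transcripts among the 12 most lowered are little characterised. 1700047M11Rik was at -2.0 ± 0.023, and at -3.35 with the processed signals. 5730416F02Rik, a pseudogene on the X chromosome, was lower by 3.28-fold (-1.71 ± 0.047), Gpr137b-ps 3.20-fold (-1.68 ± 0.13) and D5Ertd605e 3.15-fold (-1.65 ± 0.039). Dubr was at -1.36 ± 0.091, and Macroh2a3, a pseudogene of a macroH2A histone, at -1.03 ± 0.10. For 1700047M11Rik and Dubr the ESlncRNA channel was well above background on 1 of the 2 arrays, so no fold is given, and Dubr was at -2.56 with the processed signals. F630028O10Rik was well above background in the vector channel alone and was at least 2.08-fold lower. For such a bound the dim signal was replaced, where it was smaller, by the least signal that counted as well above background, in channels separated after loess and Aquantile scaling, and dye bias can enter it.

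The raised RNAs changed by smaller factors. 1700001L05Rik, an uncharacterised long noncoding RNA, gave raw signals of 570.5 and 534 in the vector channel and 2488 and 2746 in the ESlncRNA channel. Its ratios were 1.32 and 1.31, a 2.49-fold higher level (1.31 ± 0.0024, limma adjusted p = 1.82e-06). BC021767, listed as a pseudogene, gave 112 and 114 against 487 and 572 and was 2.32-fold higher (1.21 ± 0.027, limma adjusted p = 2.80e-06). Gm839 was well above background in the ESlncRNA channel alone and was at least 2.11-fold higher. These 3 were the transcripts at least 2-fold higher on both arrays.

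The next in order were Rn18s, the 18S ribosomal RNA, at 1.0 ± 0.085, and Gm8580, a pseudogene, at 0.77 ± 0.019 by its brightest probe. The other probe of Gm8580 was lower (-0.44), so its place here is that of 1 probe. Airn, the paternally expressed RNA that silences Igf2r in cis, gave raw signals of 290.0 and 258 in the vector channel and 819 and 875 in the ESlncRNA channel. It was 1.66-fold higher (0.73 ± 0.027, limma adjusted p = 3.18e-05). LOC106740 was at 0.66 ± 0.037 and Slc22a13b at 0.57 ± 0.10. Pvt1, the long noncoding RNA beside Myc, gave 1388 and 1170 against 3391 and 3628 and was 1.44-fold higher (0.52 ± 0.065, limma adjusted p = 1.99e-04). AY512915, Wincr1 and Etohd2, seen in the ESlncRNA channel alone, were at least 1.57-fold, 1.29-fold and 1.29-fold higher.

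**Figure D2:**
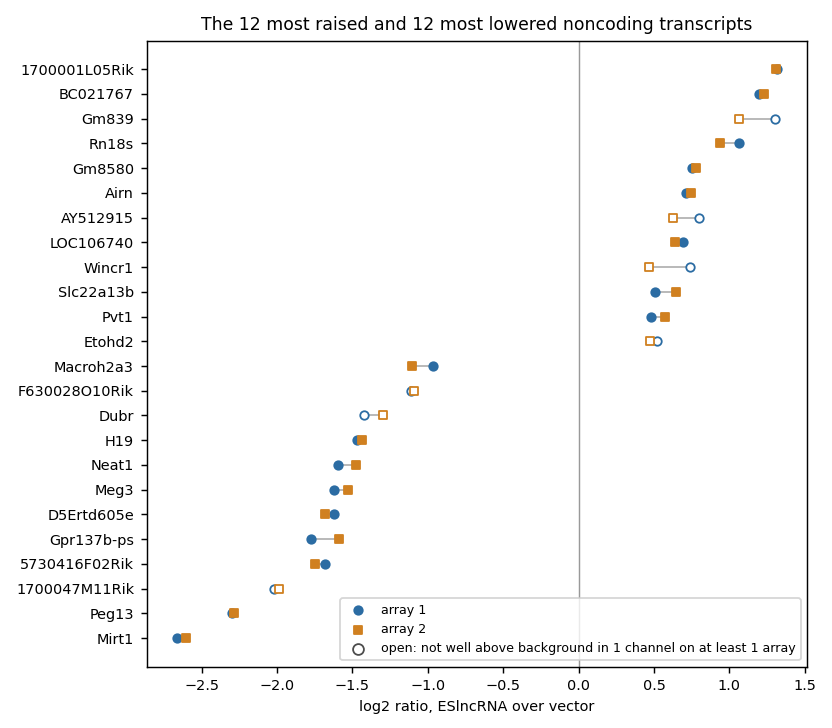
Log2 ratio of ESlncRNA over vector (horizontal) on each array for the 12 most raised and the 12 most lowered noncoding transcripts that passed the threshold, 1 transcript a row. Circles are the array of replicate 1 and squares that of replicate 2, joined by a line, and open symbols mark transcripts not well above background in 1 channel on at least 1 array. Each transcript has both arrays on the same side of 0, from Mirt1 at -2.66 to 1700001L05Rik at 1.32.

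Imprinted noncoding RNAs are transcribed from 1 parental allele. Of the 6 seen in both channels on both arrays, 3 were lower, 1 was higher and 2 did not pass. With 2 seen in the vector channel alone, whose lower value the detection rule all but fixed, 5 of 8 were lower (median -0.57), where 36.7% of all detected transcripts were lower. The 3 were Peg13, Meg3 and H19. The 2 seen in the vector channel alone were Mirg, a microRNA host of the same cluster as Meg3, and Igf2os, an antisense RNA of Igf2. They were at least 1.54-fold and at least 1.36-fold lower. Meg3 and Mirg share a cluster, as do H19 and Igf2os, so these are not 5 separate loci. Airn was the 1 that rose. Kcnq1ot1, the silencing RNA of another imprinted cluster, was at 0.10 ± 0.035 by its brightest probe and did not pass, while its other probe was lower (-0.21 ± 0.048, limma adjusted p = 0.0106). Gnasas1, antisense at the Gnas locus, was at 0.02 ± 0.029 and did not pass. Airn stayed above 0 under each of the 4 other ways of scaling.

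RNAs tied to the X chromosome did not move together. Firre, an X-linked RNA that contacts several chromosomes, was 1.75-fold lower (-0.80 ± 0.099). Xist, the RNA that silences 1 X chromosome in female cells, was read by probes of 2 RefSeq entries. The probe of NR_001463 rose (0.35 ± 0.022, limma adjusted p = 0.0010), while that of NR_001570 did not pass (0.03 ± 0.067). Ftx, an RNA next to Xist, did not pass either (0.06 ± 0.10).

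Abundant nuclear RNAs and other well-known long noncoding RNAs formed a list of 9, of which 6 were lower, 1 was higher and 2 did not pass, with a median of -0.32, beside 36.7% lower and 26.4% higher over all detected transcripts. For Tug1 (NR_002321) and Norad another probe of the same transcript was called higher, at 0.30 and 0.17, so 4 of the 6 stand without that conflict: Meg3, Neat1, Malat1 and Dleu2. After Meg3 and Neat1 came Malat1, the RNA of nuclear speckles. Its raw signals were 4172 and 3675 in the vector channel and 5317 and 5719 in the ESlncRNA channel, and its normalized ratios -0.52 and -0.48 (1.41-fold lower, -0.50 ± 0.028, limma adjusted p = 1.92e-04). Tug1 (NR_002321) was at -0.33 ± 0.012, Dleu2, the host of miR-15a and miR-16-1, at -0.32 ± 0.13, and Norad, which binds Pumilio proteins, at -0.18 ± 0.056. These 4 were within 1.5-fold, and with median centring Malat1 was at 0.11, Tug1 at 0.11 and Norad at 0.48, where all detected transcripts had a median of 0.34. With median centring 2 of the 9 were lower and 4 higher, with processed signals 3 lower and 1 higher, and with the deposited log2 values 4 lower and 1 higher. Pvt1 was the raised member under loess. 1700030C10Rik did not pass (0.02 ± 0.11), nor did the second Tug1 entry, NR_002322 (-0.04 ± 0.24).

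Among the noncoding transcripts, hosts of small nucleolar RNAs, the RNAs that guide modification of ribosomal RNA, lay near or slightly above zero. Of the 11 detected as noncoding, 6 were higher (54.5%), none was lower and 5 did not pass, with a median of 0.15, where 26.4% of all detected transcripts were higher and 36.7% lower. Hosts that the array files as coding are left out of this count. Snhg11 is 1 of them and was lower (-0.38 ± 0.062, limma adjusted p = 8.4e-04), and the others were not counted. Snhg12 gave raw signals of 3186 and 3215 in the vector channel and 7194 and 8960 in the ESlncRNA channel, and ratios of 0.30 and 0.34 (1.25-fold higher, 0.32 ± 0.029, limma adjusted p = 0.00153). Snhg1 was at 0.26 ± 0.058, Snhg10 at 0.25 ± 0.0048, Snhg17 at 0.25 ± 0.18 and Dancr at 0.15 ± 0.023. Gas5, a host of many box C/D RNAs, was measured by 3 probes, which gave 0.15, 0.16 and 0.18 and each passed. Snhg3, Snhg16, 2410006H16Rik, Snhg7 and Snhg6 lay between -0.09 and 0.12. The number higher fell to 3 with a normexp offset of 0 and with the deposited log2 values. Of all 20614 detected transcripts, 4102 and 3736 were higher in these settings. With median centring all 11 were higher, with a list median of 0.75 against 0.34 for all detected transcripts. By that scaling 12955 of all 20614 detected transcripts were higher, and the shift differed between transcripts. Snhg6 went from -0.09 to 0.71, and Rnu1b6, which is not on this list, from -0.15 to 0.60. With the processed signals 6 were higher, with a median of 0.28 against 0.12, and 7109 of all 20614 detected transcripts were higher.

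Many host genes begin with a terminal oligopyrimidine tract, the start that ties translation to growth signals, so the promoters were read for it. RefSeq promoters of GRCm38.p6, 250 bases before to 50 after each annotated start, were matched for 154 of the 279 genes. The motif searched was C at the start site followed by 4 bases that are each C or T, on the transcript strand. It stood at 1 or more starts in 12 of the 154 (7.79%), against 3.01% of the 27025 genes of the table. The table was not limited to genes detected here, and the share among all detected genes was not counted. Among the matched genes whose transcript was higher, 7 of 49 (14.3%) had it, and among those lower, 0 of 44. The 7 were Gas5, 1110038B12Rik, Trappc13, A930005H10Rik, 2810001G20Rik, Etohd2 and Wincr1, with ratios from 0.18 to 0.60. Etohd2 and Wincr1 were seen in the ESlncRNA channel alone, so detection all but fixed that they were higher. Among genes seen in both channels on both arrays the counts were 5 of 42 higher and 0 of 29 lower. 2810410L24Rik, which had the motif, did not pass by its brightest probe (-0.07). Its other probe, seen in the vector channel alone, was lower (-0.95), so the 0 of 44 rests on the choice of probe. The motif was not split by call over all genes of the array. All these counts are descriptions that were not tested, and they depend on the annotated starts.

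The hosts show how far that depends on the base taken as the start. Of the 10 host genes matched, 2 met the rule, Gas5 at the second of its 2 annotated starts and Snhg7. The first 30 bases from the annotated start are shown, on GRCm38.p6, with a tract that met the rule in capitals. Gas5 is at chr1:161035166-161035195, forward strand, Snhg7 at chr2:26640215-26640244, reverse strand, Snhg12 at chr4:132308678-132308707, forward strand, and Snhg1 at chr19:8723487-8723516, forward strand. Snhg12 opened with 6 pyrimidines and no C at the first base, and Snhg1 with 3 pyrimidines. Snhg7 had the tract and did not pass the test of its ratio (-0.07 ± 0.050).
Gas5: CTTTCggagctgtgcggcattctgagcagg
Snhg7: CTCTCggcagccatggcggctctatgtttg
Snhg12: tttctcgcttcatccgcggtccctgtctgt
Snhg1: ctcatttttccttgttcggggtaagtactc

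The GATA motif AGATAA, read on both strands, is the kind of site bound by GATA factors of the erythroid lineage. It lay in the promoters of 14 of the 154 genes (9.09%), against 12.7% of all genes of the table, detected here or not. Of the matched genes whose transcript was higher, 3 of 49 held it, and of those lower, 6 of 44. A match of these letters is not a binding site.

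The lists of microRNA hosts and of erythroid RNAs held few detected members, and Dleu2 stands on both. Over all detected transcripts 36.7% were lower and 26.4% higher. Of 4 on the microRNA list, 3 were lower: Mirt1, which stands on that list although it is known from infarcted heart and not as a host, Dleu2, and Mir22hg, the host of miR-22 (-0.23 ± 0.071). Mir17hg, the host of the miR-17-92 cluster, did not pass (0.03 ± 0.065). Dleu2 and Mir22hg lost their calls with median centring (-0.12 and -0.02) and with the processed signals (-0.28 and -0.11), and Dleu2 also with the deposited log2 values (-0.42). On the erythroid list 4933439C10Rik (-0.74 ± 0.16) and Dleu2 were detected, and both were lower. Of the noncoding RNAs of the HOX clusters on the list, 0 were among the 282.

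**Figure D3:**
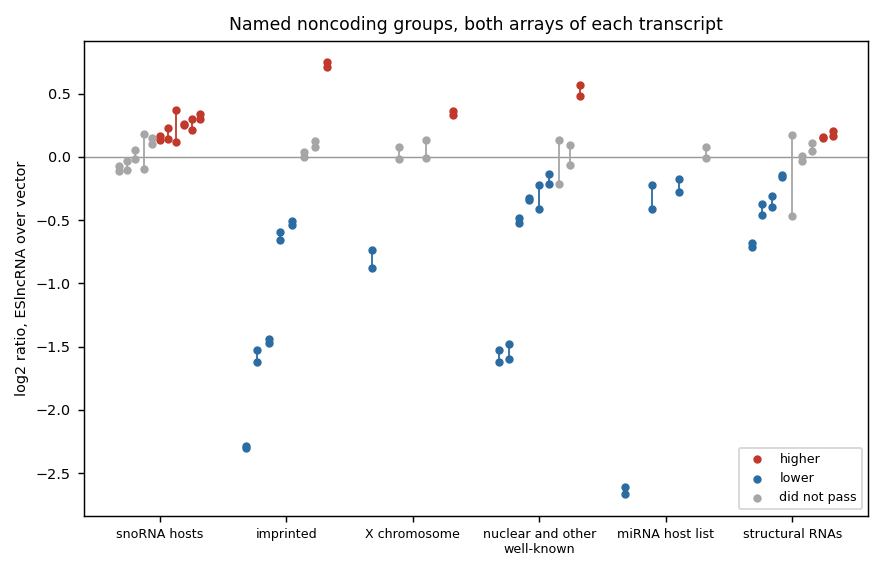
Log2 ratio of ESlncRNA over vector (vertical) for the members of 6 groups of noncoding RNAs, with the 2 arrays of each transcript joined by a line and coloured by call. The snoRNA hosts span -0.09 to 0.32 by their means, while the imprinted group reaches from -2.29 to 0.73.

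Structural RNAs gave small ratios of both signs. Of 9 on the list, 4 were lower (44.4%), 2 higher (22.2%) and 3 did not pass, with a median of -0.14, near the background of 36.7% and 26.4%. Rnu3b1, the U3 RNA of ribosomal RNA processing, was 1.62-fold lower (-0.70 ± 0.019). Rnu2-10, a U2 RNA of the spliceosome, was at -0.42 ± 0.058, Rnu7, the U7 RNA of histone mRNA processing, at -0.35 ± 0.063 and Rnu1b6, a U1 RNA, at -0.15 ± 0.012. Rnu12, the U12 RNA of the minor spliceosome, was at 0.18 ± 0.030 and Rmrp, the RNA of RNase MRP, at 0.16 ± 0.0066. Terc, the telomerase RNA (-0.02 ± 0.029), Rpph1, the RNA of RNase P (-0.14 ± 0.45), and Snora74a (0.08 ± 0.048) did not pass, and the ratios of Rpph1 differed in sign between the arrays, -0.46 and 0.18. With median centring none of the 9 was lower and 6 were higher, and with a normexp offset of 0 none was higher and 3 were lower. The ribosomal RNAs, whose mature forms come from 1 precursor, went apart: Rn18s was at 1.0 and Rn28s1 at -0.18, a pair singled out after their values were seen.

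Pseudogenes, 74 of the 282, were higher in 24 cases (32.4%) and lower in 28 (37.8%), with a median of 0.03, near the background of 26.4% and 36.7%. A pseudogene probe can also read the gene it copies, so the coding gene after which a pseudogene is named was set beside it where the array detected both. There were 9 such pairs. In 5 both were lower, with Gpr137b-ps at -1.68 beside Gpr137b at -1.28 ± 0.072, and their probes share no run longer than 7 bases. Only the probes were compared with each other. A pseudogene probe was not compared with the whole coding transcript, so a short run does not show that it reads the pseudogene alone. Pisd-ps1 and Pisd-ps3, among those 5, were both set beside the same coding gene, Pisd. Hmgb1-rs17 (-0.43) shares a run of 37 bases with the probe of Hmgb1 (-0.32 ± 0.015), so its value may hold signal of both. In the other 4 pairs the pseudogene did not pass by its brightest probe while the coding gene did: Pdxk at -0.90 beside Pdxk-ps at -0.09, Tubb2a at 0.40, Smarca5 at 0.23 and Tyms at 0.19. Smarca5-ps was at 0.05 by that probe, while its other probes were lower (-0.18) and higher (0.53). Over all the noncoding transcripts, 16 had a brightest probe that shares a run of at least 40 bases with a probe filed under another name, among them Gm12070, with a Gapdh probe. Most of those other probes are filed under an interval name.

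Where a transcript had several probes, they did not always give 1 answer. Of 45 such transcripts, the probes of 25 made the same call, those of 16 were mixed, and those of 4 were opposite: Gm8580, Smarca5-ps, Tug1 and Norad. The probes of Gm8580 gave 0.77 and -0.44, and those of Tug1 -0.33 and 0.30, so the direction of these 4 transcripts was not settled. Meg3 fell by both of its probes (-1.57 and -0.69). The probes that disagree are shown, for Gm8580 at chr10:93128065-93128124, reverse strand (raised) and chr10:93128175-93128234, reverse strand (lowered), and for Tug1 at chr11:3540471-3540530, reverse strand (lowered) and chr11:3542143-3542202, reverse strand (raised).
Gm8580 raised: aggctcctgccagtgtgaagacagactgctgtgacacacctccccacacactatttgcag
Gm8580 lowered: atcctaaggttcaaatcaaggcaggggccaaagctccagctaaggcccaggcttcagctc
Tug1 lowered: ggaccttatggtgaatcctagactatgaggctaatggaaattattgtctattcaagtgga
Tug1 raised: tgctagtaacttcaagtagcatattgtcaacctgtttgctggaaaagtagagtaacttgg

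Some noncoding entries are RNA forms of genes that also make protein, and the array held a coding probe of the same gene for 8 member probes. Per array, the ratio of the noncoding probe was set against that of the brightest coding probe, and 6 of the 8 differed (limma, adjusted p under 0.05 over all pairs). The noncoding probe was above the coding one in all 6. Of pairs of 2 coding probes of 1 gene, 41.9% differed. For Bmp1, a protease that trims procollagen, the coding probe fell (-0.68 ± 0.091) and the noncoding one did not pass (-0.06 ± 0.0022). The difference was 0.56 and 0.68 on the arrays (0.62, limma adjusted p = 1.90e-04). For Rreb1 the difference was 0.42, for Trappc13 0.38, for Zfp672 0.36, for 1 of the Prmt6 probes 0.35 and for Ccl25 0.29. In 5 of those 6 pairs, Zfp672 excepted, the noncoding probe was the dimmer of the pair, and the part of brightness was not tested. The direction did not hold under median centring. Of the 3 pairs that then differed, Bmp1 (0.44) and Zfp672 (0.46) had the noncoding probe above, and the other Prmt6 probe, which had not passed under loess, lay below the coding one (-0.25). Rreb1 (-0.05) and Ccl25 (-0.05) changed sign without passing. With the processed signals 2 pairs differed, Bmp1 and Trappc13, both with the noncoding probe above.

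Position was not used in choosing the transcripts, so each was set beside the nearest detected coding gene within 50 kb. A neighbour was found for 171. Across them the ratio of the RNA and that of its neighbour correlated at 0.207 (Pearson) and 0.215 (Spearman), as a description. For 8974 coding transcripts and their neighbours these were 0.215 and 0.169. For Gpr137b-ps the neighbour, Ero1b, was lower as well (-1.46). Frmd8, beside Neat1, was lower (-0.37), and so was Mrpl23, beside H19 (-0.33). Near 1700001L05Rik, Pacsin2 was at 0.40, and near BC021767, Tuft1 at 0.46, both higher. By contrast, 1700047M11Rik lay beside Fbxo28 (0.06) and 5730416F02Rik beside Hmgn5 (-0.06), which did not pass.

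**Figure D4:**
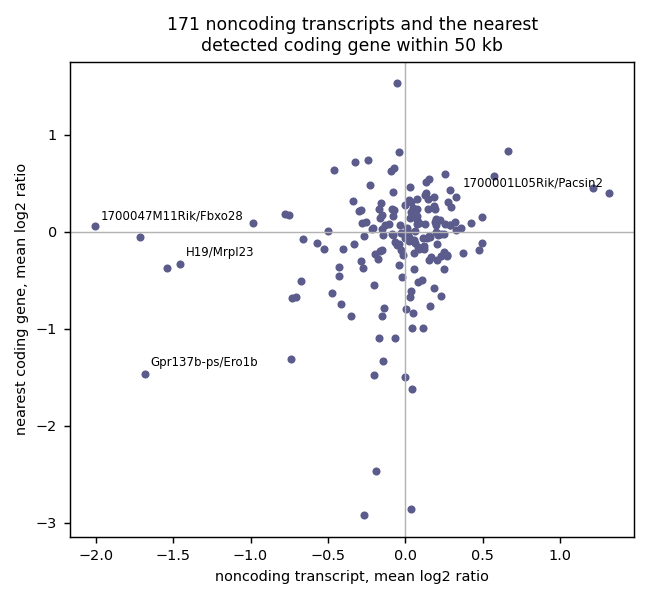
Mean log2 ratio of 171 noncoding transcripts (horizontal) against that of the nearest detected coding gene within 50 kb (vertical), 1 point a pair. Most points crowd around 0 (Pearson r 0.207), with Gpr137b-ps and Ero1b low together and 1700047M11Rik low beside a neighbour near 0.

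Markers of the cell types that fetal liver holds were read in the same RNA. Erythroid markers were bright in both channels, and 11 of 16 were higher, 1 lower and 4 not passing (median 0.64). The summed raw signal of the erythroid markers was 361820 and 282700 in the vector channel and 1319700 and 1232800 in the ESlncRNA channel. In the vector channel it was below the sum of the granulocyte markers on both arrays. All 12 granulocyte markers were lower with a median of -4.34. Their summed raw signal was 791900 and 805220 in the vector channel and 103310 and 134910 in the ESlncRNA channel. All 8 macrophage markers (median -1.62) and all 6 megakaryocyte markers (median -1.78) were lower, as were 4 of 5 of mast cells and basophils, 5 of 6 of endothelium and stroma, 5 of 6 of hepatocytes and 2 of 3 of lymphocytes. The summed raw signal of the macrophage markers was 10689 and 9804 in the vector channel and 2052 and 2194 in the ESlncRNA channel, and that of the megakaryocyte markers 48427 and 41893 against 25677 and 26496. That of the mast cell and basophil markers was larger in the ESlncRNA channel, 30488 and 34102 against 20661 and 19998. The sums of the lymphocyte, endothelial and stromal, and hepatocyte markers were smaller there. All these sums are raw and hold the difference in brightness between the channels. In the ESlncRNA channel 4 of the 8 macrophage markers were not well above background, and all 12 granulocyte markers were. The part of these cell types in the values of Mirt1, Peg13, Meg3, Neat1, H19 and the other lowered RNAs was not tested. In bulk RNA, fewer cells of a type and less RNA per cell cannot be told apart. Morrbid, an RNA that supports the survival of short-lived myeloid cells, was picked out after its value was seen. It was well above background in the vector channel alone and was at least 1.52-fold lower (-0.72 ± 0.063, limma adjusted p = 4.43e-05).

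The detection rule itself tilted some counts. Of the 282, 246 were well above background in both channels on both arrays, and of these 72 were higher (29.3%) and 77 lower (31.3%), with a median of 0.03. Over all 17864 transcripts of the array seen so, 28.3% were higher and 33.4% lower, so these shares lay close to that background. Another 18 were seen in the vector channel alone, 16 of them lower, and 6 in the ESlncRNA channel alone, all higher, as their selection all but requires. The remaining 12 were mixed. The faintest transcripts inside the rule were Nlrp1c-ps, Gm7854 and 2410018L13Rik, with raw vector signals between 35.2 and 43.9. Just outside were Sprr2j-ps, 4930594C11Rik and Gm4371, which were well above background on 1 array but not on the other. The median GC content of the probes was 43.3%, as over all detected transcripts, and its Pearson r with the ratio was -0.072 over the 282, as a description over probes that share both arrays.

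**Figure D5:**
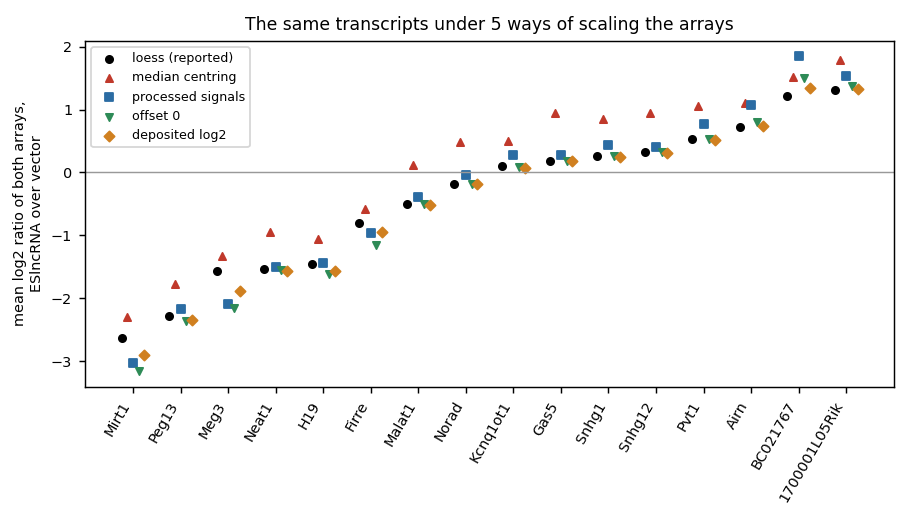
Mean log2 ratio of both arrays for 16 noncoding RNAs (horizontal) under 5 ways of scaling the arrays, 1 symbol each. Median centring lies above loess throughout, which puts Malat1 and Norad on the other side of 0, while Mirt1, Peg13, Meg3, Neat1, H19 and Firre stay below 0 under all 5.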

How the data were processed

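Per the file headers, Feature Extraction 10.1.1.1 read the scans of 2 arrays. From the authors' deposited files came the intensities of each spot, its mean signal and median background in both channels. Agilent's processed intensities were an alternative. Deposited log10 ratios were used to check direction (r = 0.986 and 0.992 with the processed intensities). The deposited log2 values come from limma, per the submitters' processing notes, which name no version. Their medians were -0.02 and -0.01, and their scale and direction were inferred from r = 0.99996 with ratios made here without background subtraction. Input was 100 ng for replicate 2, per the labels' protocols.

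Here signals were corrected with normexp (offset 50) and loess in R 4.3.3 with limma 3.58.1, with controls and marked spots (284 and 308 of 59305) at weight 0. No spot was saturated, and 52.1% and 45.6% of the spots on the first array and 49.1% and 44.4% on the second were well above background in the vector and the ESlncRNA channel. One fit ran over all 26790 probes kept, with 1 residual degree of freedom and 5.27 from the prior. Benjamini-Hochberg adjustment took in all of them, and the steps were tested on simulated arrays. Names came from the RefSeq table of GRCm38.p6: 251 by accession, 10 by symbol and 13 by an older symbol, while 8 kept the file's name. Coordinates of probes are mm9, per the file headers.

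Named transcripts are the 12 higher and 12 lower of largest mean ratio that passed with 1 sign on both arrays, all detected members of the lists, and the 6 within-gene pairs of smallest p. Others are marked. The transcripts and lists were chosen with earlier results of these data known. Both arrays lay on 1 slide. The labels do not say whether replicates were separate cultures or animals, so a p-value reflects how 2 arrays scattered, perhaps for technical reasons alone. Alternatives covered scaling, background, offset, filters, probe summary and replicates.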

Additional observations from a re-analysis of the deposited data

How the results depend on the processing

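With median centring in place of loess, 181 transcripts were higher and 39 lower, 16 were 2-fold or more higher on each array, the median was 0.33, and 3 within-gene pairs differed. Over all 20614 detected transcripts that scaling gave 12955 higher and 3765 lower. With Agilent's processed signals 109 were higher and 57 lower, 11 and 24 were at least 2-fold higher and lower, the median was 0.18, and 2 pairs differed. Over all detected transcripts 7109 were then higher and 4858 lower. A normexp offset of 0 gave 8 and 22 at least 2-fold. The deposited log2 values gave 50 higher transcripts, and no replicate block, that is the channels without a term for the array, gave 44 higher and 67 lower. Over all detected transcripts the deposited values gave 3736 higher. Over all 26790 probes kept, no replicate block gave 4481 higher and 7411 lower. With 1 array left out the median ran from -0.0076 to 0.017, and counts at least 2-fold from 3 to 4 higher and from 11 to 13 lower. Counts by limma have no such value, since 1 array leaves no residual degree of freedom. The sign turned with median centring for Malat1 (0.11), Rnu2-10 (0.039), Tug1 (0.11 and 0.32), Norad (0.48), Rnu1b6 (0.60), Rpph1 (0.28), Snhg6 (0.71), Snhg7 (0.47) and Terc (0.19), with the processed signals for Terc (0.27), Rpph1 (0.14), Tug1 NR_002322 (0.13), Snhg7 (0.022) and Snhg6 (0.011), and with the mean of the probes for Norad (0.023) and Kcnq1ot1 (-0.053). The cause was not tested. Of the 61 named transcripts, 38 kept direction and call with median centring, 47 with the processed signals, 54 with offset 0, 55 with the deposited values and 57 with the mean of the probes. With replicate 1 left out 4 that had not passed changed sign, and with replicate 2 left out 5. The precision is limited by the number of arrays, 2, of 1 dye orientation.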
